A study of Mus musculus with 5 samples.

Results

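This comparison sets the striatal lesion 1 day after a photothrombotic stroke against the sham striatum, across all genes of the deposited table. It uses 2 of the 5 RNA libraries of the series, and every gene with at least 1 RPKM (reads scaled by exon length and library total) in at least 1 of the 5 libraries, which is 12783 of 19221 genes. The mice were C57BL/6 males, 9 weeks of age, and both kinds of tissue were punched from the caudate putamen. In photothrombosis the dye rose bengal is activated by light inside blood vessels, where it damages the endothelium and clots form. All mice received 100 mg/kg of the dye into the abdomen, and an optical fibre 3 mm below the dura delivered 532 nm light at 30 mW for 2 min to each side. On the stroke side (right) the light came after the dye, and on the sham side (left) before it. The day 1 library pooled the lesions of 6 animals, which had been located on magnetic resonance images and punched from frozen sections. The sham library pooled punches from the left side of each mouse. The sources used here do not say how many animals or which survival times it mixes. The sham tissue also had the fibre placed in it, and came from a brain that had a stroke on its other side.

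Blocked vessels deprive the tissue core of oxygen and glucose, and neurons there die within hours. Dying cells release molecules that make resident microglia, astrocytes and endothelium produce chemokines, secreted proteins that draw blood leukocytes towards their source. Neutrophils usually arrive first and monocytes after them, while astrocytes around the core turn reactive. The striatum holds mostly projection neurons (medium spiny neurons), which use GABA and carry dopamine receptors: Drd1 in the direct pathway and Drd2 in the indirect pathway.

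Each group is 1 pooled library, so no difference has a replicate check and no p-value is given. A gene is counted as higher or lower where log2((day 1 RPKM + 1) / (sham RPKM + 1)), called the log2 fold below, was at least 1 or at most -1. Ratios are of the RPKM values themselves, and their 95% intervals cover counting error only. By this rule 426 of 12783 genes (3.33%) were higher at day 1 and 172 (1.35%) were lower. Among the 10108 protein-coding genes the numbers were 304 (3.01%) and 57 (0.564%). The median log2 fold of all genes analysed was -0.02, and 74.3% of them lay within 0.5 of 0. Among protein-coding genes, 47 had a log2 fold of at least 2 and 1, Crybb1, of at most -2. With the protein-coding nuclear genes alone rescaled to a common total, 151 were higher and 222 lower, and the median of these genes moved by -0.19. Higher genes then made up 40.5% of the calls, against 84.2% among protein-coding genes as deposited. Under median-of-ratios scaling that share was 81.3%, against 71.2% over all genes as deposited.

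The day 1 library rested on 46323693 reads and the sham library on 44924656, as recovered from the low values. Loci of ribosomal RNA took 34.4% of the reads at day 1 and 41.2% in sham, and the mitochondrial genome took 6.02% and 3.98%. All 10 markers of striatal projection neurons that were looked up were above 1 RPKM in both libraries, with summed levels of 905 RPKM at day 1 and 1814 RPKM in sham. Markers of cortical neurons summed to 93.3 RPKM at day 1 and 63.5 RPKM in sham, and those of choroid plexus, nearly all of it Ttr, to 305 RPKM and 78.4 RPKM. Both are tissues other than the striatum, and the part of such differences in the results was not tested. Because this is bulk tissue, fewer cells of a type and less RNA per cell cannot be told apart.

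**Figure D1:**
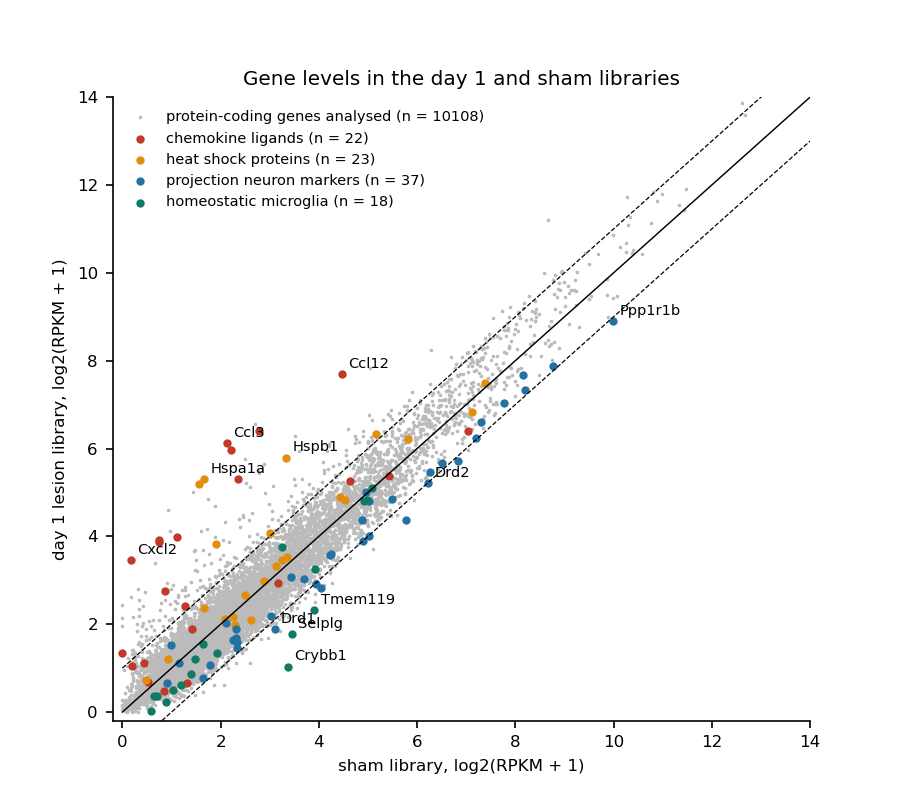
Each point is a gene, placed by its level in the sham library (x axis) and in the day 1 lesion library (y axis), both as log2(RPKM + 1). The solid line marks equal levels and the dashed lines the limits of the calls. Chemokine ligands such as Ccl3 and Ccl12 and the heat shock genes Hspa1a and Hspb1 lie above the upper line, while Crybb1, Selplg and Tmem119 lie below the lower one.

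Of 22 chemokine ligand genes analysed, 12 were higher at day 1 and 0 lower, and their median log2 fold was 1.24, against -0.02 for all genes. Among 13 CC chemokines, 7 were higher (median 1.89), and among 9 CXC and CX3C chemokines, 5 were higher (median 1.14). With the members below 1 RPKM in every library included, the medians were 0.69 and 0.30. In 14 of the 22 the day 1 level was the highest of the 5 libraries.

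The CC ligands fall into those that act on monocytes through the receptor Ccr2 and those that act through other receptors such as Ccr1. Ccl2, the principal Ccr2 ligand, was at 83.0 RPKM at day 1 against 5.93 RPKM in sham, a ratio of 14.01 with a counting interval of 11.9 to 16.6. Ccl12, a second Ccr2 ligand of the mouse, was the most abundant chemokine of the lesion, at 206 RPKM at day 1 against 21.1 RPKM in sham. Ccl7, the remaining ligand of that group, was at 38.7 RPKM against 4.11 RPKM in sham. Ccr2 itself was nearly absent from both libraries, with 6 reads at day 1 and 6 in sham.

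Ccl3, a ligand of Ccr1, had the highest log2 fold of all protein-coding genes (4.00), with 69.1 RPKM at day 1 against 3.37 RPKM in sham. Its neighbour Ccl4 was at 61.3 RPKM against 3.61 RPKM in sham. Ccl6 and Ccl9, which act on Ccr1, had log2 folds of 2.87 and 1.89. Their receptor gene Ccr1 was itself among the higher genes, at 1.36 RPKM at day 1 against 0.0864 RPKM in sham (log2 fold 1.12, ratio 15.7, counting interval 6.72 to 46.4). All 7 higher CC genes lie on chromosome 11 between positions 82035571 and 83664683 of GRCm38. Not every CC gene moved: Ccl27a was at 37.1 RPKM at day 1 against 24.0 RPKM in sham, and Ccl5, the ligand of T cells and others, at 0.607 RPKM against 0.441 RPKM.

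Of the CXC ligands that attract neutrophils through Cxcr2, Cxcl1, Cxcl2 and Cxcl3 were close to absent from sham tissue. Cxcl5 and Ppbp, also listed, were below 1 RPKM in every library and so not analysed. Cxcl2 was at 10.0 RPKM at day 1 against 0.129 RPKM in sham, or 962 against 12 reads, a ratio of 77.7 with a counting interval of 35.5 to 213. Cxcl1 was at 14.2 RPKM against 0.677 RPKM in sham. Cxcl3 had 247 reads at day 1 and 0 in sham. Its ratio was 79.8 with sham set to 3 reads, which is a convention and not a counting interval. Cxcl1, Cxcl2 and Cxcl3 lie in 1 stretch of chromosome 5 with Pf4, the platelet chemokine also known as Cxcl4. Pf4 was at 13.7 RPKM against 0.679 RPKM in sham. The 4 genes span 90772435 to 90905938. Cxcl16 completed the 5 higher genes (log2 fold 1.14). The receptor gene Cxcr2 had 25 reads at day 1 and 4 in sham, and stayed below 1 RPKM in all 5 libraries. Cx3cl1, the neuronal ligand of the microglial receptor Cx3cr1, was at 83.9 RPKM at day 1 and 130 RPKM in sham (log2 fold -0.62), and Cx3cr1 at 1.54 RPKM and 2.81 RPKM (-0.58).

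The windows before the starts of Cxcl1 and Cxcl2 are shown because these neighbours were nearly silent in sham and both carry a match to the kappaB motif, the site that NF-kappaB proteins bind. S100a9, a neutrophil gene of chromosome 3 treated next, carries one too. The 150 bases before each annotated start (RefSeq, GRCm38.p6) are written along the strand of the gene, with matches to GGGANTTTC on either strand in capitals.
Cxcl1: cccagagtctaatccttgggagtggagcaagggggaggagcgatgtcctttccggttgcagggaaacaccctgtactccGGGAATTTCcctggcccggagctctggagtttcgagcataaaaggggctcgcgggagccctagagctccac
Cxcl2: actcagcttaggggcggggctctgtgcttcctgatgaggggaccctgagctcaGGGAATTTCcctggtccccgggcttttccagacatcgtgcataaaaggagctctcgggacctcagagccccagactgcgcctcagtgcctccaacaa
S100a9: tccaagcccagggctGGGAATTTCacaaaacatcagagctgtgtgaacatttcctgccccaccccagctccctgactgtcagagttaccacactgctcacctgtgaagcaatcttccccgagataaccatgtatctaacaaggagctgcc
They lie at chr5:90891095-90891244 (plus strand), chr5:90903749-90903898 (plus) and chr3:90695722-90695871 (minus). The match begins 71 bases before the start in Cxcl1, 97 in Cxcl2 and 135 in S100a9. Of all 32851 windows in the RefSeq table, 0.563% hold this motif in the same 150 bases. A match describes the letters and not a bound site. Of all protein-coding genes analysed, 76.9% have a window in that table, against 75.7% of the higher and 66.7% of the lower ones. Shares of motifs over the called genes were not computed.

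Of 20 neutrophil markers, 7 were analysed and 5 of these were higher at day 1 (median 1.81, or 1.801 with Stfa2l1, listed at 0 in sham, set to 3 reads there). With the members below 1 RPKM included, the median was 0.85. S100a8 and S100a9 encode the subunits of calprotectin, the main cytosolic protein of neutrophils. S100a9 was at 93.4 RPKM at day 1 against 5.50 RPKM in sham, and S100a8 at 53.03 RPKM against 4.65 RPKM. Retnlg, a neutrophil-rich resistin relative, was at 5.93 RPKM against 0.988 RPKM in sham. Lcn2, the iron-scavenging lipocalin made by neutrophils and by reactive astrocytes, was at 38.3 RPKM against 10.3 RPKM. Csf3r, the receptor for the neutrophil growth factor, was at 1.26 RPKM at day 1 and 1.21 RPKM in sham. Another 6 markers, Ngp and Mmp9 among them, were below 1 RPKM in every library. The remaining 7, which include Ly6g, Mpo and Elane, are not in the deposited table, so the counts cover only part of the list.

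Monocyte and macrophage markers had 4 of 9 analysed members higher (median 0.81, and 0.06 with the members below 1 RPKM included). Cd14, the lipopolysaccharide co-receptor, was at 42.7 RPKM at day 1 against 5.89 RPKM in sham, and Lyz2, the macrophage lysozyme, at 26.4 RPKM against 10.7 RPKM. The other 2 were Ms4a6d (log2 fold 1.35) and Arg1 (1.03), the arginase of repair macrophages. Ly6c2, which marks inflammatory monocytes, was at 5.02 RPKM at day 1 and 5.91 RPKM in sham. Lymphocyte markers were scarce, with 0 of 7 members higher or lower. Cd3e had 2 reads at day 1 and 11 in sham.

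Cytokines of the interleukin-1 family were led by an inhibitor. Il1rn, the receptor antagonist, was at 5.14 RPKM at day 1 against 0.129 RPKM in sham (ratio 40.0, counting interval 24.4 to 70.3). Il1b, the cytokine it opposes, was at 3.45 RPKM against 0.163 RPKM (ratio 21.1, counting interval 10.0 to 53.4). Il33, a nuclear alarmin of glia, was the third of the 3 higher genes among 11 analysed (log2 fold 1.22, list median 0.71). The list median was 0.21 when members below 1 RPKM in every library were included. Il1r2, a decoy receptor, was at 1.12 RPKM against 0.140 RPKM in sham, with a log2 fold of 0.90 that missed the limit. Of inflammasome genes, Nlrp3 and Casp1 were below 1 RPKM in every library, and Pycard had a log2 fold of 0.61.

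Among cytokines that signal through gp130 and STAT3, 6 of 17 genes were higher (median 0.41). With the 8 members below 1 RPKM in every library included, the median was 0.22. The ligands Lif (log2 fold 1.54), Osm (1.19), Clcf1 (1.16) and Il11 (1.11) were all below 0.4 RPKM in sham. Lif was at 2.87 RPKM at day 1 against 0.327 RPKM. Socs3, the feedback inhibitor of this pathway, was at 14.2 RPKM against 3.14 RPKM in sham, and Bcl3, an atypical inhibitor of NF-kappaB, completed the 6 (1.13). Il6, below 1 RPKM in every library and so not analysed, had 87 reads at day 1 and 4 in sham. Stat3 was at 5.44 RPKM at day 1 and 2.85 RPKM in sham (0.74).

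In the TNF and NF-kappaB list 2 of 14 genes were higher, Tnfrsf1a (log2 fold 1.43), the main TNF receptor, and Tnf itself (1.24), at 2.00 RPKM at day 1 against 0.272 RPKM in sham. Nfkbia, the inhibitor induced by NF-kappaB, was at 24.0 RPKM at day 1 and 12.996 RPKM in sham (0.84). Tnfrsf12a, the TWEAK receptor known as Fn14, was among the 20 highest protein-coding genes, at 77.1 RPKM against 10.5 RPKM in sham. Of 9 Toll-like receptor and related genes, Cd14 and Clec4d (1.71), a C-type lectin of myeloid cells, were higher.

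Of 24 interferon response genes, 3 were higher and 0 lower (median -0.05, and positive under median-of-ratios and trimmed-mean scaling). The 3 were the membrane proteins Ifitm1 (log2 fold 2.03), Ifitm3 (1.302) and Ifitm2 (1.13), while Irf7 was at 1.61 RPKM at day 1 and 3.73 RPKM in sham (-0.86) and Ifit3 at 3.74 RPKM and 7.51 RPKM (-0.85). Of 19 MHC genes, 0 were higher and H2-Q6 (-1.02) was lower (median -0.20), a class I gene whose reads may be shared with its close copies. Complement genes had 1 of 15 higher, C5ar1 (1.48), the receptor for the C5a fragment.

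**Figure D2:**
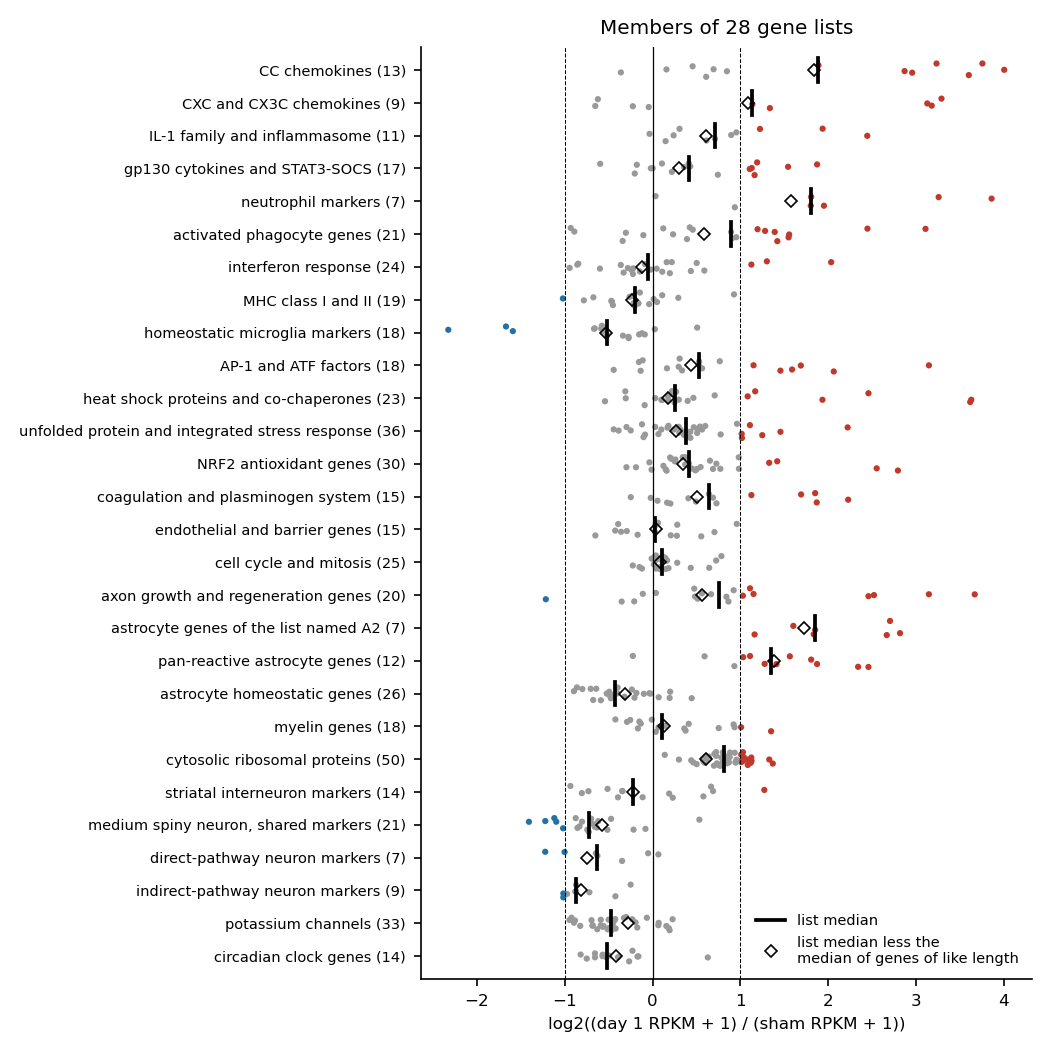
Each point is a gene of the named list (number analysed in parentheses), placed on the x axis by its log2 fold of day 1 over sham. Red points are at least 2-fold higher and blue points 2-fold lower, the bar is the list median and the diamond the median after the length adjustment described further on. All 7 analysed genes of the astrocyte list named A2 lie beyond the upper limit, and 0 potassium channel genes lie beyond either limit.

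Markers of resting microglia were the group with the lowest single values. Of 18 analysed, 3 were lower and 0 higher (median -0.52), and in 16 of 18 the day 1 level was the lowest of the 5 libraries. Crybb1, a crystallin gene expressed by mature microglia, was at 1.05 RPKM at day 1 against 9.29 RPKM in sham (48 against 411 reads, ratio 0.113). Selplg, the P-selectin ligand, was at 2.44 RPKM against 9.93 RPKM, and Tmem119 at 3.98 RPKM against 14.01 RPKM. The fall was not shared by every member: Fcrls was at 12.6 RPKM at day 1 and 8.54 RPKM in sham. Later lesions held higher levels, with Tmem119 at 14.01 RPKM in the sham library, 12.5 RPKM at 4 hours, 3.98 RPKM at day 1, 48.1 RPKM at day 3, and 46.2 RPKM after 10 days.

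Genes of activated phagocytes were in part higher. Of 21 analysed, 8 were higher and 0 lower (median 0.89), and 0 had their highest level at day 1. Lgals3, the galectin of phagocytosing macrophages, was at 28.1 RPKM against 2.37 RPKM in sham, and Plin2, which coats lipid droplets, at 17.0 RPKM against 2.31 RPKM. Apoe and Trem2, the lipid carrier and lipid receptor of late-stage phagocytes, did not follow, with Apoe at 513 RPKM at day 1 and 952 RPKM in sham (log2 fold -0.89) and Trem2 at 2.94 RPKM and 6.52 RPKM (-0.93). Of 7 Fc gamma receptor genes, Fcer1g (1.60), the shared signalling chain, and Fcgr4 (1.03) were higher.

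Of 23 heat shock genes analysed, 6 were higher and 0 lower, with a median of 0.25. Hspa1a and Hspa1b encode the same inducible HSP70 protein, so their reads may be divided between near-identical copies. Hspa1a was at 38.3 RPKM at day 1 against 2.18 RPKM in sham and Hspa1b at 35.3 RPKM against 1.96 RPKM. Gm20481, also among the 20 highest, overlaps Hspa1a on the opposite strand. Of the small heat shock proteins, Hspb1 was at 54.6 RPKM against 9.11 RPKM in sham, Hspb6 had a log2 fold of 1.93 and Hspb8 of 1.08. Hspe1, the mitochondrial co-chaperonin, was at 79.7 RPKM against 34.9 RPKM (1.17), and Hsp90ab1, the constitutive HSP90, was at 112 RPKM at day 1 and 139 RPKM in sham (-0.31). Stress-inducible chaperone genes that did not pass were Hsp90aa1 (0.46), Dnajb1 (0.18) and Hsph1 (0.03).

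The promoters of 4 of these genes are shown because each holds a match to GAANNTTC, the paired unit to which heat shock factors bind, in capitals below. The windows are again the 150 bases before the start (RefSeq, GRCm38.p6), along the strand of the gene.
Hspa1a: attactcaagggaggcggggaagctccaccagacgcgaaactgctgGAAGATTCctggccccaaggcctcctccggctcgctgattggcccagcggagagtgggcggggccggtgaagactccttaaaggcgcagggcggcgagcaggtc
Hspa1b: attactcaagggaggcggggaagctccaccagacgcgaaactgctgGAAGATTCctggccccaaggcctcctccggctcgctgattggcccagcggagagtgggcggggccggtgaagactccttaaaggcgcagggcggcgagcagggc
Hspb1: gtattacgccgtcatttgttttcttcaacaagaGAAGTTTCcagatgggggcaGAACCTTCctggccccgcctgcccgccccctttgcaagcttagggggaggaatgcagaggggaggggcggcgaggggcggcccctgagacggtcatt
Hspe1: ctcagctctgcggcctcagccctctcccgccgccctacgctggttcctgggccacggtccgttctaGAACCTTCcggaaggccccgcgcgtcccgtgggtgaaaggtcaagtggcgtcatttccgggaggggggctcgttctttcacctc
They lie at chr17:34972157-34972306 (minus strand), chr17:34959239-34959388 (minus), chr5:135887769-135887918 (plus) and chr1:55087998-55088147 (plus). The windows of Hspa1a and Hspa1b are identical in 149 of 150 bases. Hspb1 holds 2 matches and the others 1. Matches in the windows of the remaining heat shock genes of the list were not counted. Of all 32851 windows, 3.95% hold this 8-letter motif, which reads the same on both strands, in their last 150 bases.

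Transcription factors of the AP-1 and ATF families had 6 of 18 members higher and 0 lower (median 0.53). Atf3, the stress-induced member, was at 16.4 RPKM at day 1 against 0.961 RPKM in sham. Maff (log2 fold 2.06), Fosl1 (1.69), Fos (1.59), Atf4 (1.46) and Jun (1.15) were the others. The list of Egr, Nr4a and other activity-dependent genes had 5 of 28 higher and 0 lower, with 19 above 0 and a median of 0.27. Egr3 was at 6.00 RPKM at day 1 and 10.4 RPKM in sham (-0.71), and Nr4a1 at 10.3 RPKM and 15.0 RPKM (-0.50), while the growth arrest genes Gadd45b (1.76) and Gadd45g (1.66) and the mRNA decay factor Zfp36 (1.57) were among the 5.

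The unfolded protein and integrated stress response list had 6 of 36 genes higher (median 0.39). Gdf15, a secreted stress hormone, was at 4.90 RPKM at day 1 against 0.264 RPKM in sham. Atf4, the central factor of the integrated stress response, was at 73.5 RPKM against 26.2 RPKM, and its targets Ppp1r15a (log2 fold 1.01) and Ddit3 (0.96) lay on either side of the limit. Cebpb (1.25), Manf (1.11) and Nupr1 (1.02) were the remaining higher genes.

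Of 30 NRF2 antioxidant genes, 4 were higher and 0 lower (median 0.42). Hmox1, which breaks down haem, was at 226 RPKM at day 1 against 31.8 RPKM in sham. The metallothioneins, small zinc and copper binding proteins, were at very high levels, with Mt2 at 2372 RPKM against 404 RPKM in sham and Mt1 at 1029 RPKM against 384 RPKM. Mt2 overlaps the antisense gene Gm45774, whose reads cannot be told from its own. Prdx1, a peroxide-reducing enzyme, was the fourth (log2 fold 1.33). The classical NRF2 target Gclc was at 1.68 RPKM at day 1 and 2.29 RPKM in sham (-0.30). In the haem and iron list all 16 genes had positive log2 folds and 4 were higher, among them Fth1, the ferritin heavy chain, at 3660 RPKM against 1790 RPKM in sham. Haemoglobin and red cell genes had 0 of 6 higher or lower, with Hbb-bs at 922 RPKM at day 1 and 928 RPKM in sham.

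Genes that respond to low oxygen had 2 of 26 higher, Angptl4 (log2 fold 1.07), an inhibitor of lipoprotein lipase, and Pgf (1.03), the placental growth factor. Epo was the only lower one (-1.42), but its exons overlap those of Gnb2 on the same strand. The median of 0.18 became negative when protein-coding genes were rescaled. This list is partial too: Hilpda, named as hypoxia inducible, is outside it and was higher (log2 fold 2.04). In glycolysis 1 of 20 was higher, the lactate exporter Slc16a3 (1.33), and Ldha was at 120 RPKM at day 1 and 63.3 RPKM in sham (0.91).

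Of 15 coagulation and plasminogen genes, 5 were higher and 0 lower (median 0.64). Plaur and Plau, the urokinase receptor and urokinase, had log2 folds of 1.87 and 1.13. Plaur was at 6.48 RPKM at day 1 against 1.05 RPKM in sham. Anxa2 (2.23) and S100a10 (1.85), which form the plasminogen-binding complex of the cell surface, were also higher. Endothelial and barrier genes had 0 of 15 higher or lower (median 0.03). Cldn5, the tight junction claudin of brain endothelium, was at 17.8 RPKM at day 1 and 22.1 RPKM in sham.

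Metalloproteinase genes were led by Mmp3 (log2 fold 2.48), stromelysin, at 5.95 RPKM at day 1 against 0.247 RPKM in sham, and by the inhibitor Timp1 (2.34). Adam8 (1.47) was the third of 3 higher genes among 17, and the list median was 0.05. Mmp9, below 1 RPKM in every library and so not analysed, had 123 reads at day 1 and 15 in sham. Matrix genes had 5 of 18 higher (median 0.21), with Ccn1 at 16.5 RPKM against 2.02 RPKM in sham (2.54).

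Most analysed genes of the pan-reactive and A2 lists of reactive astrocytes were higher at day 1, and those of the A1 list were not. Of 12 genes of the pan-reactive list, 9 were higher (median 1.34), and all 7 analysed genes of the list named A2 were (median 1.85). The A2 list has 12 members, of which 4 were below 1 RPKM in every library and 1 is not in the deposited table. In the list named A1, 1 of 9 analysed genes was higher (median 0.01). Gfap, the astrocyte filament, was at 102 RPKM in sham, 26.3 RPKM at 4 hours, 272 RPKM at day 1, 509 RPKM at day 3, and 234 RPKM after 10 days. Timp1 followed a like course, at 11.1 RPKM in sham, 0.368 RPKM at 4 hours, 60.4 RPKM at day 1, 100 RPKM at day 3, and 24.6 RPKM after 10 days. Both were thus lower at 4 hours than in the sham pool, whose survival times are not known. Tgm1, a transglutaminase of the A2 list, was at 36.2 RPKM at day 1 against 4.71 RPKM in sham, Tm4sf1 at 24.9 RPKM against 2.68 RPKM and Ptx3 at 11.1 RPKM against 2.40 RPKM.

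Homeostatic astrocyte genes mostly had negative values, with 0 of 26 beyond the limit but 22 of 26 below 0 (median -0.42). Slc1a2, the main glutamate transporter, was at 21.96 RPKM at day 1 and 40.7 RPKM in sham (log2 fold -0.86). Kcnj10, the potassium channel that buffers potassium in astrocytes, was at 2.87 RPKM and 6.20 RPKM (-0.90), and Gja1, connexin 43, at 1.05 RPKM and 2.57 RPKM (-0.80).

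Oligodendrocyte precursor genes had 1 of 10 lower (median -0.47). This was Gpr17 (log2 fold -1.20), a receptor of committed precursors, at 1.17 RPKM at day 1 against 3.98 RPKM in sham. Gpr17 overlaps Lims2 on the opposite strand. Myelin genes had 2 of 18 higher, Opalin (1.35) and Trf (1.01), and a median of 0.10 that became negative when protein-coding genes were rescaled. Mbp was at 1029 RPKM at day 1 and 611 RPKM in sham (0.75).

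Calls among projection neuron genes were all on the lower side, in both pathways. Of 37 genes analysed in 3 lists, 9 were lower and 0 higher, 35 had negative log2 folds (median -0.73), and 25 had their lowest level of the 5 libraries at day 1. Pde10a, the striatal phosphodiesterase, was at 6.04 RPKM at day 1 against 15.4 RPKM in sham, Adcy5, the adenylyl cyclase of dopamine signalling, at 51.5 RPKM against 113 RPKM, and Ppp1r1b, which encodes DARPP-32, at 476 RPKM against 1019 RPKM. Actn2 (log2 fold -1.02), an actin crosslinker, was also lower, which made 5 lower genes among the 21 shared markers.

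Direct and indirect pathway markers had medians of -0.63 (7 genes) and -0.87 (9 genes). The difference between pathways was not tested. Of direct pathway genes, Drd1 was at 2.68 RPKM at day 1 against 7.60 RPKM in sham, and Chrm4, a muscarinic receptor, at 13.9 RPKM against 28.8 RPKM. Of indirect pathway genes, Drd2 was at 36.004 RPKM against 73.8 RPKM and Gpr6 at 15.1 RPKM against 31.6 RPKM. Neuropeptides of the same cells were not alike. Tac1, the substance P precursor of the direct pathway, was at 31.5 RPKM at day 1 and 30.0 RPKM in sham (log2 fold 0.07), and Penk, the enkephalin precursor of the indirect pathway, at 236 RPKM and 432 RPKM (-0.87).

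Of 14 interneuron markers, 8 had negative and 6 positive log2 folds (median -0.23): 1 was higher, the peptide gene Cck (log2 fold 1.27), which cortical cells also make, and 0 were lower. Sst was at 277 RPKM at day 1 and 185 RPKM in sham (0.58), Npy at 118 RPKM and 74.1 RPKM (0.67) and Pvalb at 38.7 RPKM and 23.6 RPKM (0.69). The cholinergic transporter gene Slc18a3 was at 1.48 RPKM and 3.74 RPKM (-0.94). Cortical excitatory neuron markers had 11 of 12 positive log2 folds and 0 beyond the limit (median 0.32). Their part in the Cck value was not tested.

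Synaptic genes had few calls but mostly negative values. Of 35 presynaptic genes, 0 were higher and 2 lower, Slc32a1 (log2 fold -1.12), the vesicular GABA transporter, and Doc2b (-1.10), a calcium sensor of release. Among 86 glutamate receptor, GABA receptor and ion channel genes analysed, 72 had negative log2 folds and 1 passed the limit, the receptor Grm3 (-1.09). Their median was -0.45, and -0.27 after the length adjustment given next.

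The log2 folds depended on transcript length. In 5 groups of protein-coding genes of about equal number, ordered by union exon length, the median log2 fold was 0.28 for genes of 51 to 2139 bases, 0.09, -0.02 and -0.12 in the next 3 groups, and -0.22 for genes of 6556 to 41155 bases. Higher calls numbered 181 in the shortest group and 5 in the longest, and lower calls 17 and 11. Spearman's rho between log2 fold and length was -0.41 over these genes at day 1, a description over genes that share both libraries. The same trend was present at day 3 (rho -0.41), was smaller at day 10 (rho -0.16) and was near 0 at 4 hours (rho -0.02), each against the same sham library. In the same order of length, the medians were 0.27, 0.36, 0.35, 0.32 and 0.27 at 4 hours, and 0.43, 0.24, 0.12, -0.03 and -0.17 at day 3. When the median of genes of like length (20 bins) was subtracted, 212 protein-coding genes were higher and 96 lower. This adjustment was chosen after seeing the data, and whether RNA quality or biology underlies the trend was not tested.

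**Figure D3:**
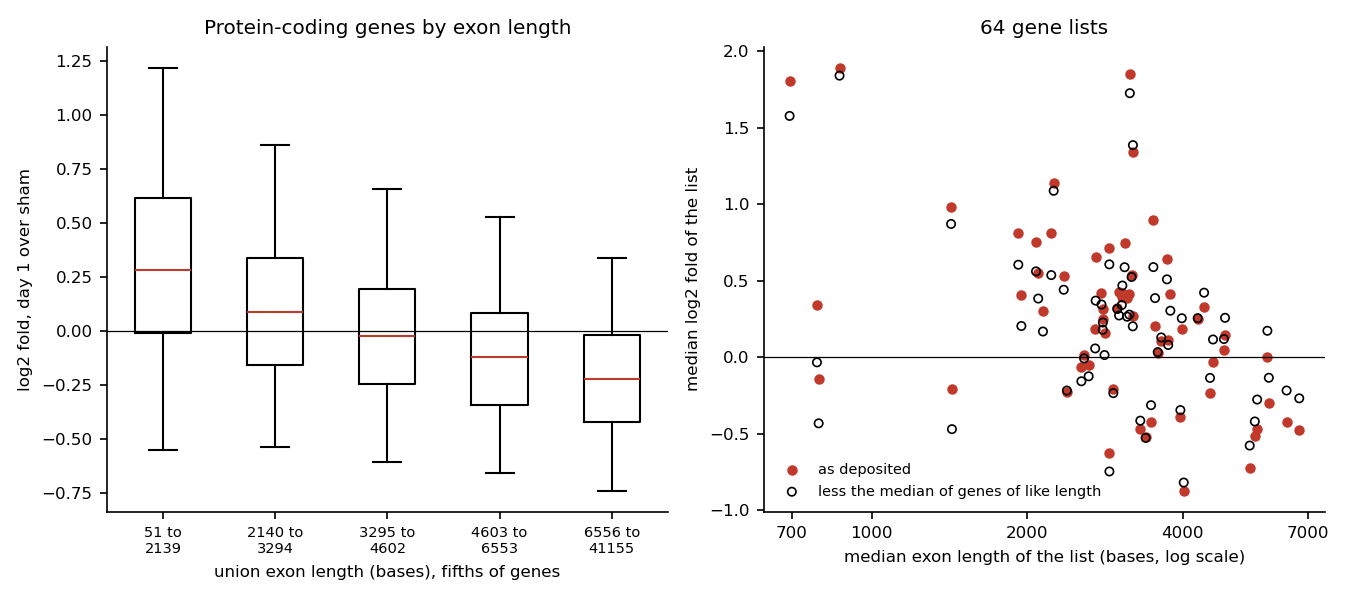
Left, boxes show the log2 fold of day 1 over sham for protein-coding genes in 5 groups of exon length (box, quartiles; whiskers, 5th to 95th percentile), with medians of 0.28 in the shortest and -0.22 in the longest group. Right, each of the 64 gene lists is placed by the median exon length of its members (log scale) and its median log2 fold as deposited (red) or after the length adjustment (open circles).

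Cytosolic ribosomal protein genes, with a median exon length of 1924 bases, had 13 of 50 higher, and all 50 had positive log2 folds (median 0.81, and 0.60 after the length adjustment). Among these 50, Rps24 led with 76.5 RPKM at day 1 against 29.0 RPKM in sham, and Rpl3 came last with 172 RPKM and 156 RPKM. The list does not hold every such gene, and those outside it were not counted. Rps26, outside it, was at 500 RPKM at day 1 against 185 RPKM in sham (log2 fold 1.43). Many processed copies of these genes exist, so their reads are uncertain. Of 44 listed nuclear genes of oxidative phosphorylation, 2 were higher, Cox7b (log2 fold 1.05) and Ndufa4 (1.04), with a median of 0.41 that became 0.20. This list is also partial, and Cox7c (1.20) and Ndufc2 (1.17), outside it, were higher too. The mitochondrial genes had 2 of 13 higher, mt-Nd3 (1.46) and mt-Co3 (1.26), with a median of 0.34 that became -0.03.

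After the adjustment the medians of other lists became 1.84 for CC chemokines, 1.58 for neutrophil markers, 1.39 for the pan-reactive list, 1.72 for the A2 list, -0.53 for homeostatic microglia and -0.71 for projection neuron genes. Medians that became smaller in size included activated phagocyte genes (0.89 to 0.59), monocyte and macrophage markers (0.81 to 0.54) and chemokine receptors (0.66 to 0.37). So did glutamate and GABA receptors (-0.43 to -0.22), potassium channels (-0.47 to -0.28) and lysosomal genes (0.19 to 0.06). Others grew in size, such as direct pathway markers (-0.63 to -0.75). Of the 40 protein-coding genes named for the highest and lowest values, 39 stayed beyond the limit and Pde10a came to -0.91.

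The axon growth list had 7 of 20 higher and 1 lower (median 0.75). Sprr1a, which regenerating sensory neurons switch on, was at 23.3 RPKM at day 1 against 0.911 RPKM in sham, and Tubb6, a beta-tubulin, at 34.0 RPKM against 5.09 RPKM. Ecel1 (log2 fold -1.22) was the lower one, and Gap43 was at 19.1 RPKM and 24.6 RPKM (-0.35). S100 and annexin genes had 9 of 18 higher, with S100a11 at 49.0 RPKM against 6.36 RPKM in sham. Of 33 actin regulators 7 were higher, including Tagln2 (1.89) and the filamin gene Flnc (1.52). Cell cycle genes had 0 of 25 higher or lower (median 0.11).

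Of 26 p53 and cell death genes, 3 were higher, the cell cycle inhibitor Cdkn1a (log2 fold 1.18) and Bcl2a1b (1.75) and Bcl2a1d (1.69), members of a family of near-identical survival genes. Of 12 prostaglandin and arginine genes, 5 were higher (median 0.75), led by Odc1 (1.52), the first enzyme of polyamine synthesis, and Ptges (1.36), a prostaglandin E synthase. Of 21 growth factor and receptor genes, 3 were higher, of 13 TGF-beta genes 1, of 23 cholesterol genes 2, and of 26 lysosomal genes 1 (Cstb, 1.40). The share higher over all protein-coding genes analysed was 3.01%, and counts of 0 to 2 in this paragraph are not read as a change of the list. Glucocorticoid-induced genes had 3 of 16 higher, Mt1, Mt2 and Cdkn1a, while 12 of 16 had negative log2 folds (median -0.39). The list named A1 had 1 of 9 higher, the granule proteoglycan gene Srgn (2.22). Pericyte and fibroblast markers had 1 of 9 each, Tagln (2.08) and Mgp (1.04), and leukocyte integrins and adhesion molecules had Cd44 (1.11) higher and Selplg lower among 14. Ependymal and choroid plexus markers had Ttr (1.95) higher and Tekt4 (-1.17) lower among 10, and the proteasome had 0 of 30 higher or lower. Of 6 chemokine receptor genes analysed, Ccrl2 (1.23) was higher beside Ccr1.

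Of the 426 higher genes, 282 had their highest level of the 5 libraries at day 1 and 108 at day 3. Since these genes were chosen for a high day 1 value, this is a description only. Among those highest at day 1 was Ccl2, at 5.93 RPKM in sham, 2.58 RPKM at 4 hours, 83.0 RPKM at day 1, 10.4 RPKM at day 3, and 2.86 RPKM after 10 days. Lgals3 was highest at day 3, at 2.37 RPKM in sham, 0.679 RPKM at 4 hours, 28.1 RPKM at day 1, 198 RPKM at day 3, and 38.5 RPKM after 10 days. Of the 172 lower genes, chosen for a low day 1 value, 137 had their lowest level at day 1.

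**Figure D4:**
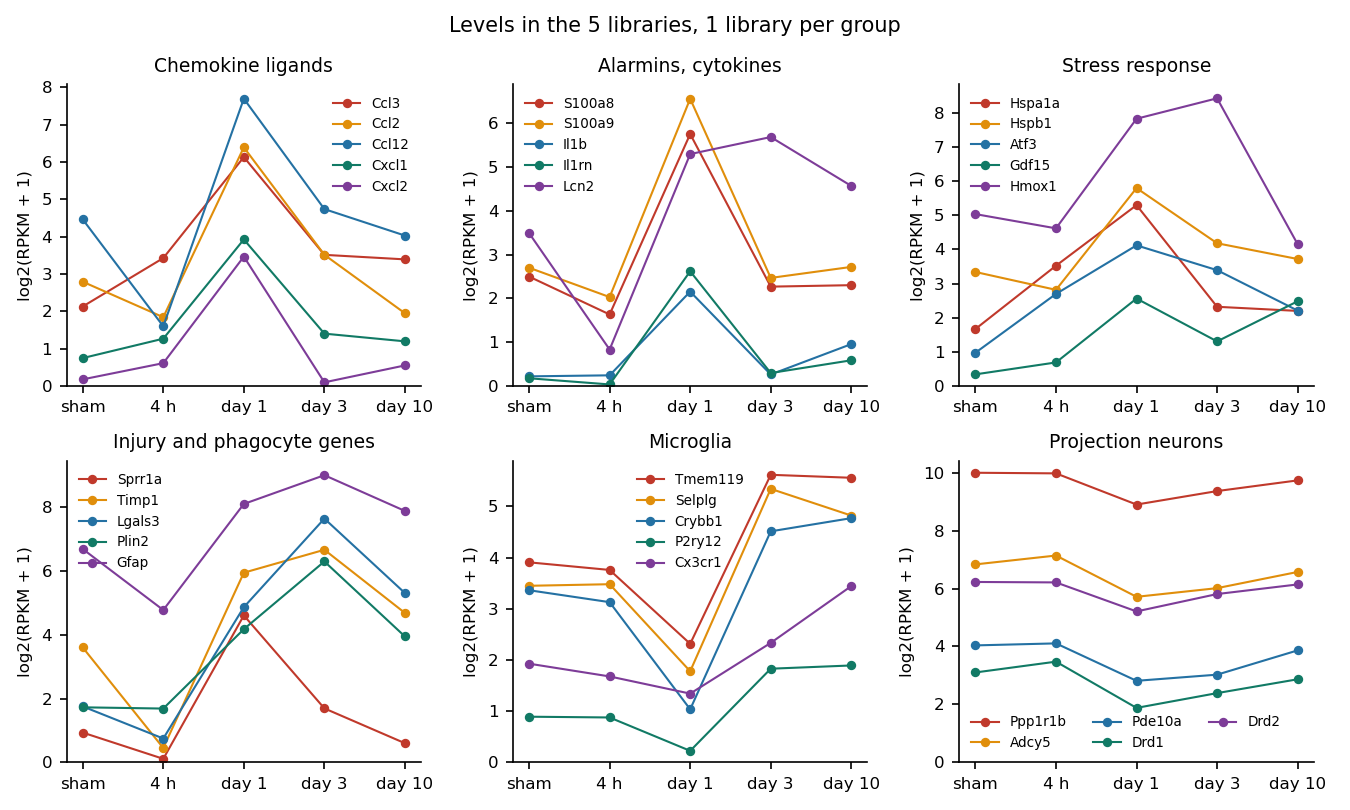
Lines join the level of a gene, as log2(RPKM + 1), in the sham, 4 hour, day 1, day 3 and day 10 libraries, 1 library per group. The chemokines and alarmins peak at day 1 except Lcn2, Hmox1 and Lgals3 are highest at day 3, and Tmem119, Selplg and Crybb1 have their lowest level at day 1.

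Of genes that do not encode proteins, small RNAs apart, the highest were mostly partners of genes already named. Gm45774 (log2 fold 2.39) lies opposite Mt2, Gm48529 (2.11) opposite Tagln, and Hsp25-ps1 (2.34) is a processed copy of Hspb1. Gm28902 (1.58) overlaps Resp18, and the T cell receptor segment Trbj2-2 (2.39) rested on 10 reads at day 1 and 0 in sham. The lowest were Gm12523 (-1.81), opposite Sort1, the processed pseudogenes Gm16470 (-1.70) and Gm38317 (-1.63), A830012C17Rik (-1.62), opposite Penk, and Gm20417 (-1.49). Among the 20 lowest protein-coding genes, Tcf20 (-1.36), Cdr1 (-1.33), Gm26566 (-1.46) and Gm21954 (-1.37) likewise overlap other genes, as do Gpr17 and Epo, named above. Of those that do not overlap, Cnr1, the cannabinoid receptor abundant in projection neurons, was at 2.22 RPKM at day 1 against 6.86 RPKM in sham (-1.29). Others not named above were Lingo3 (-1.38), Hs6st3 (-1.46), a heparan sulfate sulfotransferase, Gdf10 (-1.26), a growth factor of the TGF-beta family, and Btbd17 (-1.21). Wipf3 (-1.22) and the histone gene Hist1h2an (-1.22) overlap genes on the opposite strand, and reads of Hist1h2an may be shared with other histone genes.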

How the data were processed

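The authors deposited 1 table of 19221 genes with an RPKM per library, per the file headers, from total RNA libraries. Per the submitters' processing notes, the genome build was GRCm38 and the tools were HISAT2 2.1.0, StringTie 1.3.4d and Trimmomatic 0.36. The sources used here name neither the annotation nor the use of strand. Per the file headers, the authors also deposited, for each pair of libraries, its log2 fold and its GFOLD value (setting 0.01), which served only as an alternative.

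Identifiers were matched to GENCODE mouse release 21 (19179, 99.8%). Reads were recovered from RPKM times exon length (whole within 0.02 for 90.4% of values under 5000 reads at day 1 and 90.5% in sham). Intervals are exact conditional binomial at 95%, from reads divided by 2, since even numbers were in excess among low reads, as where mates are counted, for the 89.5% of genes with whole or over 5000 reads. PCR copies are not independent molecules. The read recovery, intervals, calls and length adjustment were tested on simulated data. For the intervals every simulated count was even, against 55.5% of low read numbers at day 1 and 56.3% in sham. The simulation therefore does not test the division by 2. Work was done in Python with pandas and scipy.

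The text names the 20 highest and 20 lowest protein-coding genes, the 5 highest and 5 lowest others without small RNAs, and members of 64 gene lists, except a few genes that are not reported here by name but are counted. The genes and lists were chosen with earlier results of these data known.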

Additional observations from a re-analysis of the deposited data

How the results depend on the processing

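With 1 library per group, no library could be left out. No paired analysis was possible because each group is 1 library, with no test. The numbers of higher and lower genes, 426 and 172, stayed within 1.5 times under median-of-ratios scaling (580 and 133), trimmed-mean scaling (565 and 138), counting intervals that exclude 1 (380 and 139) and the GFOLD value of the authors' deposited table (399 and 214). They became 771 and 604 with a pseudocount of 0.1 in place of 1, and 551 and 314 with 0.5. Removing the filter cannot change these numbers, since a called gene has at least 1 RPKM by construction. It moved 12 of 64 list medians, mostly of immune lists. Among them, CC chemokines came to 0.69, CXC and CX3C chemokines to 0.30, neutrophil markers to 0.85, and monocyte and macrophage markers to 0.06. The interleukin-1 list came to 0.21 and chemokine receptors to 0.02. Limits of 1.5 and 2 on the log2 fold left 121 and 32, and 54 and 8. A floor of 5 RPKM left 340 and 109. Protein-coding nuclear genes rescaled gave 151 and 222, and the length adjustment, over protein-coding genes only, 212 and 96 (304 and 57 without it). The cause of the change under rescaling was not tested. The sign of the list median changed under rescaling for 9 of 63 lists, the length adjustment for 3 of 64, no filter for 3 of 64, median-of-ratios or trimmed-mean scaling for 2 of 64, and pseudocounts for 0. The median of the mitochondrial genes of oxidative phosphorylation became -0.034 after the length adjustment. All 50 named genes with the highest or lowest values stayed beyond the limit under the scalings and pseudocounts that applied to them, and Pde10a alone came within it, at -0.91, after the length adjustment of the 40 that code for proteins. At this depth 1 read of a 2 kb gene is worth 0.0108 RPKM at day 1 and 0.0111 RPKM in sham.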

Other observations

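Several genes outside the lists were high at day 1 and low in the other 4 libraries. They were chosen after their values were seen. Ucn, which encodes the peptide urocortin of the corticotropin-releasing family, had 103 reads (4.41 RPKM) at day 1 and 0 in sham. Its ratio was 33.3 with sham set to 3 reads, which is a convention and not a counting interval. In the other lesion libraries Ucn was at most 0.207 RPKM. Il19, a cytokine of the interleukin-10 family, was at 4.06 RPKM at day 1 against 0.271 RPKM in sham, and 0, 0.0824 and 0.0725 RPKM at 4 hours, day 3 and day 10. Phox2a, a transcription factor of noradrenergic neurons, was at 3.55 RPKM against 0.273 RPKM in sham, and overlaps Inppl1 on the opposite strand. Gm5483 was at 3.39 RPKM and is listed at 0 in sham and in the day 3 and day 10 libraries.

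Other genes, chosen in the same way, were also high at day 3 or in later lesions. Hilpda, which inhibits lipolysis at lipid droplets, was at 20.1 RPKM at day 1 against 4.16 RPKM in sham and at 24.8 RPKM at day 3. Pdpn, podoplanin, was at 20.6 RPKM against 4.46 RPKM and at 21.8 RPKM at day 3. Hcar2, the receptor for the ketone body beta-hydroxybutyrate, was at 4.37 RPKM at day 1 against 0.346 RPKM in sham and at 2.11 RPKM at day 3. Among low genes, Lag3 was at 1.01 RPKM at day 1 against 3.45 RPKM in sham, and at 34.5 RPKM at day 10.

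Circadian clock genes had 13 of 14 negative log2 folds and 0 beyond the limit (median -0.51). Ciart was at 2.17 RPKM at day 1 and 4.59 RPKM in sham, and Dbp at 25.1 RPKM and 40.1 RPKM. The sources used here do not name the hour of tissue collection.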
